A study of Mus musculus with 768 samples.

Results

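Single thymocytes sorted from wild-type C57BL/6 mice as DN2-3 cells were compared with single thymocytes sorted from the same strain as DN1 cells, gene by gene and cell by cell. Both sorts took thymus cells that were positive for CD45 and negative for lineage markers, CD4 and CD8, from mice aged 6 to 8 weeks. The DN2-3 gate required CD25, the interleukin-2 receptor alpha chain, and the DN1 gate required CD44 without CD25. Cells were taken by the gate named in their labels and kept when at least 1000 genes had a count, which left 88 of 96 WT DN2-3 cells and 86 of 96 WT DN1 cells. These 174 cells are part of 675 kept cells among 768 deposited in 8 libraries, the other 6 libraries coming from mice in which the transcription factor gene Tcf7 was deleted in the germline, with Vav-cre or with Lck-cre. Neither wild-type group carries a deletion or a Cre. Each gate is 1 library of separately barcoded cells made by a modified STRT protocol, and the labels name no animals, so no test between the gates was possible and no p-value is given. Intervals are exact 95% intervals and cover counting error only; whether molecular identifiers were used is not given in the sources used here, so counts may not be independent molecules.

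T cells develop in the thymus from progenitors that enter the DN1 stage, acquire CD25 under Notch signalling at DN2, and rearrange the T-cell receptor beta gene at DN3 with the recombinase made by Rag1 and Rag2. A rearranged beta chain pairs with the invariant pre-TCR alpha chain, encoded by Ptcra, to pass the beta-selection checkpoint. The CD44-positive, CD25-negative gate is known to hold other CD44-bearing lymphocytes beside progenitors, among them natural killer (NK) cells, innate lymphoid cells and T cells with NK receptors. E proteins drive T-lineage genes at these stages, and Id2, an inhibitor of E proteins, is used by innate lymphocytes.

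Summed over kept cells, the WT DN2-3 library held 4976245 counts and the WT DN1 library 7112702. The cells ranged from 2091 to 264739 counts with a median of 43592.5 in WT DN2-3, and from 6256 to 413143 with a median of 66572 in WT DN1. The median cell had counts for 2856.5 genes in WT DN2-3 and for 2670 genes in WT DN1. After each cell was thinned to 10000 counts, the medians were 2119.5 genes over 80 WT DN2-3 cells and 1754 genes over 81 WT DN1 cells, with 8 and 5 shallower cells left out. The same 96 well barcodes were used in every library, and 79 of them mark a kept cell in both wild-type libraries, so a barcode names a cell only within its library. Levels are given in CPM, a gene's summed counts scaled to a library total of 1000000. They were compared within a gene, because the values are not divided by gene length. In such a sum, fewer cells that use a gene and less RNA per cell cannot be told apart, so the share of cells with a count is given beside it.

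The genes that define the gates followed the labels. Il2ra, which encodes CD25, had 264 CPM (95% interval 249.8 to 279) in WT DN2-3, against 9.70 CPM (7.55 to 12.3) in WT DN1, with a count in 73 of 88 and 8 of 86 cells. Cd44 had 4.42 CPM in WT DN2-3, against 217 CPM in WT DN1, with a count in 7 of 88 and 71 of 86 cells. These are the genes of the sorted proteins and describe the sort, not a finding.

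Dntt, which encodes the terminal transferase that adds nucleotides at V(D)J junctions, was detected in all 88 WT DN2-3 cells, at 806 CPM in the lowest, 3220.1 in the median and 7081 in the highest cell. In WT DN1 it was detected in 5 of 86 cells, with a median of 0 and a highest cell of 491 CPM. The cells of the gates did not overlap for this gene. The summed level was 3037 CPM (2988 to 3085) in WT DN2-3, against 13.5 CPM (10.9 to 16.5) in WT DN1, 225-fold higher (95% interval 184 to 278), and 75% of the WT DN1 counts came from 1 cell. Ptcra was detected in 54 of 88 WT DN2-3 cells and 3 of 86 WT DN1 cells, and its summed level was 147 CPM (137 to 158) in WT DN2-3, against 1.12 CPM (0.486 to 2.22) in WT DN1. In single cells it was 0, 43.98 and 2834 CPM in the lowest, median and highest WT DN2-3 cell, and 0, 0 and 60.1 CPM in WT DN1. The WT DN2-3 cells without a Ptcra count overlapped the WT DN1 cells. Rag1 was detected in 55 of 88 WT DN2-3 cells and 1 of 86 WT DN1 cells, at 223 CPM (210.1 to 237) in WT DN2-3, against 6.05 CPM (4.38 to 8.14) in WT DN1. All WT DN1 counts of Rag1 lay in that 1 cell, at 154 CPM, while the median and highest WT DN2-3 cells had 35.8 and 3840.1 CPM. Ptcra and Rag1 had fewer counts than Dntt, and shallow cells may miss them, so cells without a count are not shown to lack them.

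Id2 ran the other way. Every one of the 86 WT DN1 cells had a count, against 26 of 88 WT DN2-3 cells. Its level was 0 CPM in the lowest, 0 in the median and 1755 in the highest WT DN2-3 cell, against 45.1, 2919.5 and 11381 CPM in the lowest, median and highest WT DN1 cell. The highest WT DN2-3 cells therefore reached into the range of the WT DN1 cells, while none passed their median. Summed, Id2 had 74.96 CPM (67.5 to 82.96) in WT DN2-3, against 3013 CPM (2973 to 3053) in WT DN1, 40.2-fold lower (95% interval 36.3 to 44.6). Cd7, a surface receptor of NK cells and T cells, had 3 counts over all 88 WT DN2-3 cells together, 0.603 CPM (0.124 to 1.76), against 1269 CPM (1243 to 1295) in WT DN1. It was detected in 3 of 88 WT DN2-3 cells, at up to 69.9 CPM, and in 83 of 86 WT DN1 cells, at 1047 CPM in the median and 4070.0 CPM in the highest. The ranges touched only through the few WT DN1 cells with a low level or none.

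The promoters of 4 of these genes are shown because Dntt, Ptcra and Rag1 serve receptor assembly and are markers of the comparison, and Id2 is the inhibitor of the factors that bind E-box motifs. The sequences are from RefSeq on build GRCm38.p6, from 250 bases before to 50 after the transcript start, written 5′ to 3′ on the gene's strand. Capitals mark each match to the E-box form CAGNTG, searched on both strands, where its reverse complement reads CANCTG. Dntt lies at chr19:41029025-41029324 on the plus strand, Ptcra at chr17:46763663-46763962, Rag1 at chr2:101649483-101649782 and Id2 at chr12:25096043-25096342, all on the minus strand.
Dntt: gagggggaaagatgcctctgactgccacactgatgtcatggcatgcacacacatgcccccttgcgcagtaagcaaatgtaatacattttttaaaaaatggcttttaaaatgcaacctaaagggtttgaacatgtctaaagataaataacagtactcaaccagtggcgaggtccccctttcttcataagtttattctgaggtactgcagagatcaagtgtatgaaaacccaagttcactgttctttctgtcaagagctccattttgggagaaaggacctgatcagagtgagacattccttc
Ptcra: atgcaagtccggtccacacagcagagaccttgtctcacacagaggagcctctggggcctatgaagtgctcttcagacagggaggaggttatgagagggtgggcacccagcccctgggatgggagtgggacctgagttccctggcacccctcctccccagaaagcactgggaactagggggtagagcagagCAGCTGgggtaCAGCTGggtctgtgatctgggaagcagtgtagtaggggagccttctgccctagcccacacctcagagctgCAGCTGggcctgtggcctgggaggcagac
Rag1: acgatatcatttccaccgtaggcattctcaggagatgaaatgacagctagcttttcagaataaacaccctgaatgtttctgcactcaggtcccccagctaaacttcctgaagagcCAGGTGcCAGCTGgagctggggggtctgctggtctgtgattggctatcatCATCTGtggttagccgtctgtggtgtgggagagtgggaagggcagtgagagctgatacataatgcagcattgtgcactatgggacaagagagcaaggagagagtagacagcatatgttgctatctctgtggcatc
Id2: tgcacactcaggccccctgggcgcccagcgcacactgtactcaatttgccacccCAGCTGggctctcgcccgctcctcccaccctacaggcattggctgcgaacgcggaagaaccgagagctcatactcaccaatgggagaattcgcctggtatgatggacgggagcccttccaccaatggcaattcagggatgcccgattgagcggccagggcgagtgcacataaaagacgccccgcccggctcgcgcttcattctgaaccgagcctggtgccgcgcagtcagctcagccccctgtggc
The Ptcra and Rag1 windows each held 3 matches, the Id2 window 1 and the Dntt window 0. The form occurred in 51.1% of all 27025 promoters in the table, in 41.8% of the 6930 measured genes with a promoter there, in 44.6% of 186 genes that were higher by 4-fold or more in WT DN2-3 and in 51.4% of 212 genes that were lower by 4-fold or more. A match is a stretch of letters and says nothing about binding, and the absence of one speaks only of this window.

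A gene was counted as measured with at least 10 CPM in a library, and differences are log2 ratios of WT DN2-3 over WT DN1 after adding 10 CPM to both, a scale that understates differences of low genes. Of 8702 measured genes, 1416 (16.3%) were higher by 2-fold or more in WT DN2-3 and 1017 (11.7%) at least 2-fold lower, 28% in all. At 4-fold the counts were 249 (2.86%) and 289 (3.32%). The median log2 ratio was 0.15, and 58.2% of the genes past 2-fold were higher. With TMM scaling factors the median was -0.02 and the counts 1118 higher and 1259 lower, so a log2 ratio near 0 has no firm sign. At least 50 CPM in WT DN2-3 with 0 counts in WT DN1 was found for 23 genes, and the reverse for 41. For a sense of how far 2 libraries of 1 gate and 1 labelled genotype differ, the Lck-cre KO2 and KO1 DN2-3 libraries were compared in the same way. There 5.38% of 8004 measured genes passed 2-fold and 0.125% passed 4-fold, with a median size of the log2 ratio of 0.31, against 0.60 between the wild-type gates. That pair gives 1 example of a difference between libraries and no error for the wild-type comparison.

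**Figure D1:**
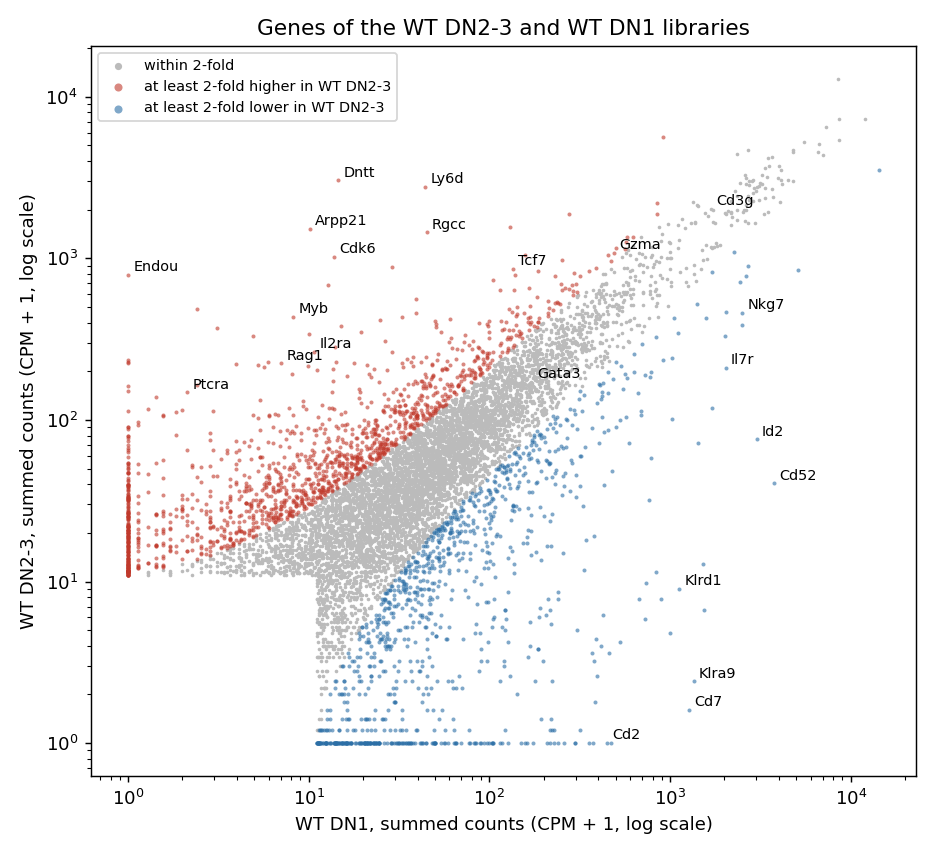
Summed level of each measured gene in WT DN2-3 (vertical axis) against WT DN1 (horizontal axis), both in CPM + 1 on log scales, coloured by whether the gene was at least 2-fold higher, lower or within 2-fold. Dntt at 3037 CPM in WT DN2-3 and 13.5 CPM in WT DN1 and Cd7 at 0.603 and 1269 CPM lie at opposite edges, while Cd3g and Gata3 lie near the diagonal.

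The 15 named genes with the highest ratios (log2 ratio 4.21 to 7.02) were chosen by this same comparison, so their direction is a description. Dntt led them. Arpp21, a phosphoprotein of immature thymocytes, had 1521 CPM in WT DN2-3, against 9.14 CPM in WT DN1. It was detected in 87 of 88 WT DN2-3 cells and in 1 of 86 WT DN1 cells. Ly6d, a surface antigen of early lymphoid cells, had 2775 CPM (2729 to 2822) in WT DN2-3, against 43.02 CPM (38.3 to 48.1) in WT DN1. It was detected in all 88 WT DN2-3 cells and 14 of 86 WT DN1 cells, of which 1 held 70.9% of the WT DN1 counts and reached 2424 CPM, below the WT DN2-3 median of 2811. Ly6d and Arpp21 thus marked nearly every WT DN2-3 cell. The kinase gene Cdk6 had 1023 CPM in WT DN2-3, against 12.8 CPM in WT DN1, and Myb, a transcription factor of immature blood cells, had 432 CPM in WT DN2-3, against 7.17 CPM in WT DN1. Cd24a, which encodes the heat-stable antigen of immature thymocytes, had 880.2 CPM in WT DN2-3, against 27.8 CPM in WT DN1. Ccr9, the receptor for the thymic chemokine CCL25, had 341 CPM in WT DN2-3, against 8.998 CPM in WT DN1, and 62.5% of its WT DN1 counts came from 1 cell.

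Endou, Rapgef3, Prss57 and Myl10 had 0 counts in all 86 WT DN1 cells, which allows up to 0.422 CPM by a floor of 3 counts. Endou, a uridylate-specific ribonuclease gene, had 790.0 CPM (765 to 815) in WT DN2-3 and a count in 82 of 88 cells, at least 1873-fold higher. Rapgef3, which encodes a cAMP-activated exchange factor for Rap proteins, had 233 CPM in WT DN2-3, at least 552-fold higher. The annotation places Endou at chr15:97711015-97731405 and Rapgef3 at chr15:97744770-97768419, close together on 1 chromosome. Prss57, a serine protease gene, had 226 CPM in WT DN2-3 and Myl10, a myosin light chain gene, 223 CPM. Both were detected in at least 73.9% of WT DN2-3 cells. The remaining higher genes were Aqp11, an aquaporin gene, Rgcc, a cell-cycle regulator, Marcks, a substrate of protein kinase C, and Dgkeos. Aqp11 had 686 CPM in WT DN2-3, against 11.8 CPM in WT DN1, and Rgcc had 1449 CPM in WT DN2-3, against 43.9 CPM in WT DN1. Marcks had 329 CPM in WT DN2-3, against 3.94 CPM in WT DN1. Dgkeos had 370.2 CPM in WT DN2-3, against 2.11 CPM in WT DN1, and its reads are uncertain because it is named for lying opposite Dgke and the strand used in counting is not given in the sources used here.

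The 15 named genes with the lowest ratios (log2 ratio -6.91 to -5.22) were led by Cd7. The group held NK-receptor genes and genes of effector lymphocytes. Klra9, a Ly49 receptor gene, had 1.41 CPM in WT DN2-3, against 1348 CPM in WT DN1. Klrd1, which encodes CD94, had 8.04 CPM (5.74 to 10.9) in WT DN2-3, against 1125 CPM (1100.1 to 1149.5) in WT DN1, with a count in 3 of 88 and 85 of 86 cells. Klrk1, which encodes NKG2D, had 4.82 CPM in WT DN2-3, against 728 CPM in WT DN1. The CD94 and NKG2D genes were thus found in few WT DN2-3 cells and most WT DN1 cells. Klrb1c, which encodes NK1.1, had 0 counts in WT DN2-3, against 372 CPM in WT DN1, at least 618-fold lower, with the floor of 3 counts equal to 0.603 CPM in that library. Cd2, an adhesion receptor of T cells and NK cells, also had 0 counts in WT DN2-3, against 448 CPM (432 to 464) in WT DN1 and a count in 75 of 86 cells. Fcer1g, the Fc receptor gamma chain used as an adaptor by NK receptors, had 10.4 CPM in WT DN2-3, against 830.1 CPM in WT DN1.

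Cd52, a small glycoprotein of lymphocyte surfaces, had 39.6 CPM in WT DN2-3, against 3754 CPM in WT DN1. Its lowest WT DN1 cell was at 582 CPM and its highest WT DN2-3 cell at 719.6 CPM, so the cell ranges overlapped at their ends. S100a6, a calcium-binding protein gene, had 11.9 CPM in WT DN2-3, against 1525 CPM in WT DN1. The chemokine gene Ccl5 had 3.82 CPM in WT DN2-3, against 1004 CPM in WT DN1, where it was uneven, with 125 CPM in the median and 11697 CPM in the highest cell. Icos, a costimulatory receptor of the CD28 family, had 6.83 CPM in WT DN2-3, against 676 CPM in WT DN1, where 1 cell held 21.7% of the counts. Cxcr6, the receptor for CXCL16, had 8.84 CPM in WT DN2-3, against 736 CPM in WT DN1. Gimap4 and Gimap3 are described with their family, and Ly6c2 with the Ly6 genes. In the Lck-cre pair 16 of these 30 genes were measured, with log2 ratios of up to 0.55 in size, and the other 14 have no value there.

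**Figure D2:**
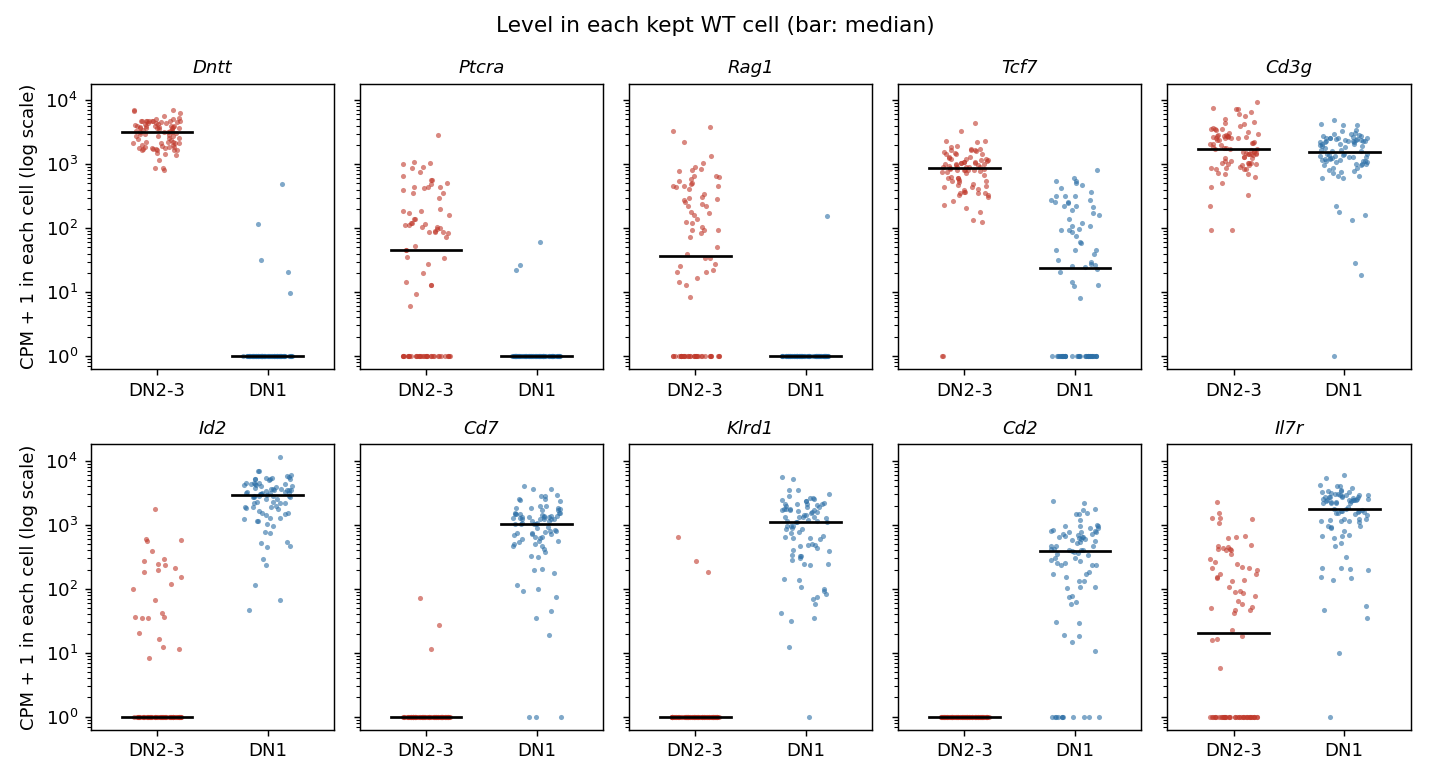
Level of 10 genes in each of 88 WT DN2-3 cells (left in each panel, red) and 86 WT DN1 cells (right, blue), in CPM + 1 on a log scale, with the median as a bar; cells without a count lie at 1. Dntt separates every cell, Id2 and Cd7 separate most, Ptcra and Rag1 have no count in many WT DN2-3 cells, and Cd3g overlaps throughout.

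The gene lists that follow were assembled with earlier results of these data known, so they describe the comparison and test nothing. Each count of members past 2-fold is to be read against 16.3% of measured genes higher and 11.7% lower. Of 13 measured genes of V(D)J recombination, 6 were higher by 2-fold or more in WT DN2-3 and 0 lower, with a median log2 ratio of 0.93. Beside Dntt and Rag1 these were Rag2, at 58.1 CPM in WT DN2-3 and 0 counts in WT DN1, Xrcc6, Lig4 and Dclre1c. Xrcc6, which encodes the Ku70 subunit that binds broken ends, had 214 CPM in WT DN2-3, against 36.7 CPM in WT DN1. Lig4, the ligase of end joining, had 57.9 CPM in WT DN2-3, against 4.36 CPM in WT DN1. Dclre1c, the Artemis nuclease that opens hairpin ends, had 20.7 CPM in WT DN2-3, against 4.08 CPM in WT DN1, in 14 of 88 and 5 of 86 cells. The general end-joining genes Xrcc5, Xrcc4, Nhej1, Prkdc and the damage kinase gene Atm lay within 2-fold (log2 ratio -0.33 to 0.75). Rag1 or Rag2 was detected in 62 of 88 WT DN2-3 cells and in 1 of 86 WT DN1 cells.

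The CD3 chains, which carry the signal of the T-cell receptor and the pre-TCR, did not separate the gates. Cd3g had 2023 CPM in WT DN2-3, against 1689 CPM in WT DN1. Cd3d had 1247 CPM in WT DN2-3, against 1803 CPM in WT DN1. Cd3e had 311 CPM in WT DN2-3, against 279 CPM in WT DN1. All 3 were detected together in 81 of 88 WT DN2-3 cells and in 83 of 86 WT DN1 cells. Cd247, the zeta chain, had 282 CPM in WT DN2-3, against 134 CPM in WT DN1, a ratio of 2.11-fold that sits at the 2-fold line. Every one of the 86 WT DN1 cells had a count both for a CD3 gene and for Klrd1, Klrk1 or Klrb1c, against 7 of 88 WT DN2-3 cells. A single count was enough here, and detection depended on depth. In thinned cells Klrd1, Klrk1 and Klrb1c were each detected in 91.4%, 71.6% and 65.4% of WT DN1 cells. The thinned WT DN2-3 shares were 2.5%, 5% and 0%. Joint detection was not counted in thinned cells. Within WT DN2-3, Ptcra and Cpa3, a protease gene of mast cells and early thymocytes, were both detected in 36 of 88 cells and neither in 12.

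Of 27 measured proximal T-cell receptor signalling genes, 4 were at least 2-fold higher and 9 lower, with a median of -0.41. The higher share was near the 16.3% of all measured genes. Themis, a signalling adaptor of thymocytes, had 221 CPM in WT DN2-3, against 2.95 CPM in WT DN1, in 66 of 88 and 1 of 86 cells. All WT DN1 counts of Themis came from that 1 cell. Lck, the kinase that phosphorylates CD3 chains, had 1890.0 CPM in WT DN2-3, against 849 CPM in WT DN1. The adaptor gene Lat had 1359 CPM in WT DN2-3, against 575 CPM in WT DN1. On the other side, the kinase that docks on phosphorylated CD3 chains, Zap70, had 28.3 CPM (23.9 to 33.4) in WT DN2-3, against 329.8 CPM (317 to 343) in WT DN1. The Tec-family kinase gene Txk had 5.83 CPM in WT DN2-3, against 189.5 CPM in WT DN1, and the Src-family kinase gene Fyn had 28.7 CPM in WT DN2-3, against 134 CPM in WT DN1. Syk, the relative of Zap70, lay within 2-fold, at 13.1 CPM in WT DN2-3 and 12.4 CPM in WT DN1. The Src-family kinases Lck and Fyn thus lay on opposite sides.

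Among Notch receptors and targets, 7 of 19 measured members were at least 2-fold higher and 3 lower, with a median of 0.33. The receptor gene Notch1 had 65.3 CPM in WT DN2-3, against 11.95 CPM in WT DN1. Notch3 had 65.9 CPM in WT DN2-3 and 0 counts in WT DN1, at least 156-fold higher. The receptors did not go one way. Notch2 had 5.02 CPM in WT DN2-3, against 28.3 CPM in WT DN1, the opposite side. Hes1, a repressor gene that Notch activates directly, had 383 CPM in WT DN2-3, against 14.1 CPM in WT DN1. It was detected in 71 of 88 WT DN2-3 cells and 5 of 86 WT DN1 cells, and 96% of the WT DN1 counts came from 1 cell. Another target, Dtx1, did not follow, at 27.9 CPM in WT DN2-3 and 32.2 CPM in WT DN1, and Rbpj, the DNA-binding partner of Notch, had 52.4 CPM in WT DN2-3 and 60.03 CPM in WT DN1. The glycosyltransferase genes Lfng and Mfng, which modify Notch receptors, were lower, with Mfng at 72.1 CPM in WT DN2-3 and 176 CPM in WT DN1. Hey1 and Nrarp had 0 counts in both gates.

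Of 26 measured T-lineage transcription factors, 11 were higher by 2-fold or more in WT DN2-3 and 4 lower, with a median of 0.66. Tcf7, which encodes TCF-1 and is the gene deleted in the other libraries of the series, had 862 CPM (836 to 888) in WT DN2-3, against 134 CPM (125 to 143) in WT DN1, 6.44-fold higher (95% interval 6.003 to 6.92). It was detected in 86 of 88 WT DN2-3 cells at a median of 881 CPM, and in 49 of 86 WT DN1 cells at a median of 22.7 CPM. No WT DN1 cell reached the WT DN2-3 median. Bcl11b, the commitment factor of T cells, had 833 CPM in WT DN2-3, against 185 CPM in WT DN1, and 3 WT DN1 cells lay above the WT DN2-3 median. Runx1 had 389 CPM in WT DN2-3, against 49.8 CPM in WT DN1, while its relative Runx3, which acts in cytotoxic lymphocytes, had 48.2 CPM in WT DN2-3, against 234 CPM in WT DN1. Sox4, an HMG-box factor, had 139 CPM in WT DN2-3, against 0.422 CPM from 3 counts of 1 cell in WT DN1. Lef1, the close relative of Tcf7, had 347 CPM in WT DN2-3, against 98.98 CPM in WT DN1.

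Gata3, needed by T cells and innate lymphoid cells alike, differed by less than the counting error, at 171 CPM (160.1 to 183) in WT DN2-3 and 169.7 CPM (160.3 to 179.5) in WT DN1. The chromatin organiser gene Satb1 was likewise close, at 403 CPM in WT DN2-3 and 446 CPM in WT DN1. The lower members were Ikzf3, at 2.81 CPM in WT DN2-3 and 184 CPM in WT DN1, and the progenitor factors Spi1, Bcl11a and Hhex. Spi1, which encodes PU.1, had 6.83 CPM in WT DN2-3, against 60.3 CPM in WT DN1, where 1 cell held 58.97% of its counts. For Bcl11a 1 cell held 97.1% of the WT DN1 counts. Erg, counted as higher, had 74.5% of its WT DN2-3 counts in 1 cell.

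The E-protein genes Tcf12 and Tcf4 lay on the opposite side from Id2. Tcf12, which encodes HEB, had 257 CPM in WT DN2-3, against 50.8 CPM in WT DN1. Tcf4, which encodes E2-2, had 141 CPM in WT DN2-3, against 40.6 CPM in WT DN1, and Tcf3, which encodes E2A, had 82.4 CPM in WT DN2-3, against 47.2 CPM in WT DN1, within 2-fold. Id3, a second inhibitor, had 124 CPM in WT DN2-3, against 236 CPM in WT DN1, also within 2-fold. Dntt was found with no Id2 in 62 of 88 WT DN2-3 cells and with Id2 in 26. Among WT DN1 cells Dntt was found with no Id2 in 0 of 86 and with Id2 in 5. Id2 with no Dntt was found in 0 of 88 WT DN2-3 cells and 81 of 86 WT DN1 cells. The median WT DN2-3 cell with an Id2 count had 6.50 counts of it, against 182 in WT DN1.

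Of 20 measured factors of innate lymphocyte lineages, 2 were higher by 2-fold or more in WT DN2-3 and 12 lower, with a median of -1.41, or -0.88 with a pseudocount of 50 CPM. Tbx21, which encodes T-bet, had 0 counts in WT DN2-3, against 114 CPM in WT DN1 in 50 of 86 cells. Zbtb16, which encodes PLZF, had 0.402 CPM in WT DN2-3, against 62.1 CPM in WT DN1 in 28 cells. Klf2, which controls exit from lymphoid organs, had 16.3 CPM in WT DN2-3, against 159.7 CPM in WT DN1, and Maf had 26.7 CPM in WT DN2-3, against 133 CPM in WT DN1. Eomes, which marks conventional NK cells, had 0 counts in WT DN2-3 and 4 in WT DN1. The exceptions were Zeb2, at 49.2 CPM in WT DN2-3 and 10.4 CPM in WT DN1, and Ikzf2, which encodes Helios, at 264 CPM in WT DN2-3 and 103 CPM in WT DN1.

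**Figure D3:**
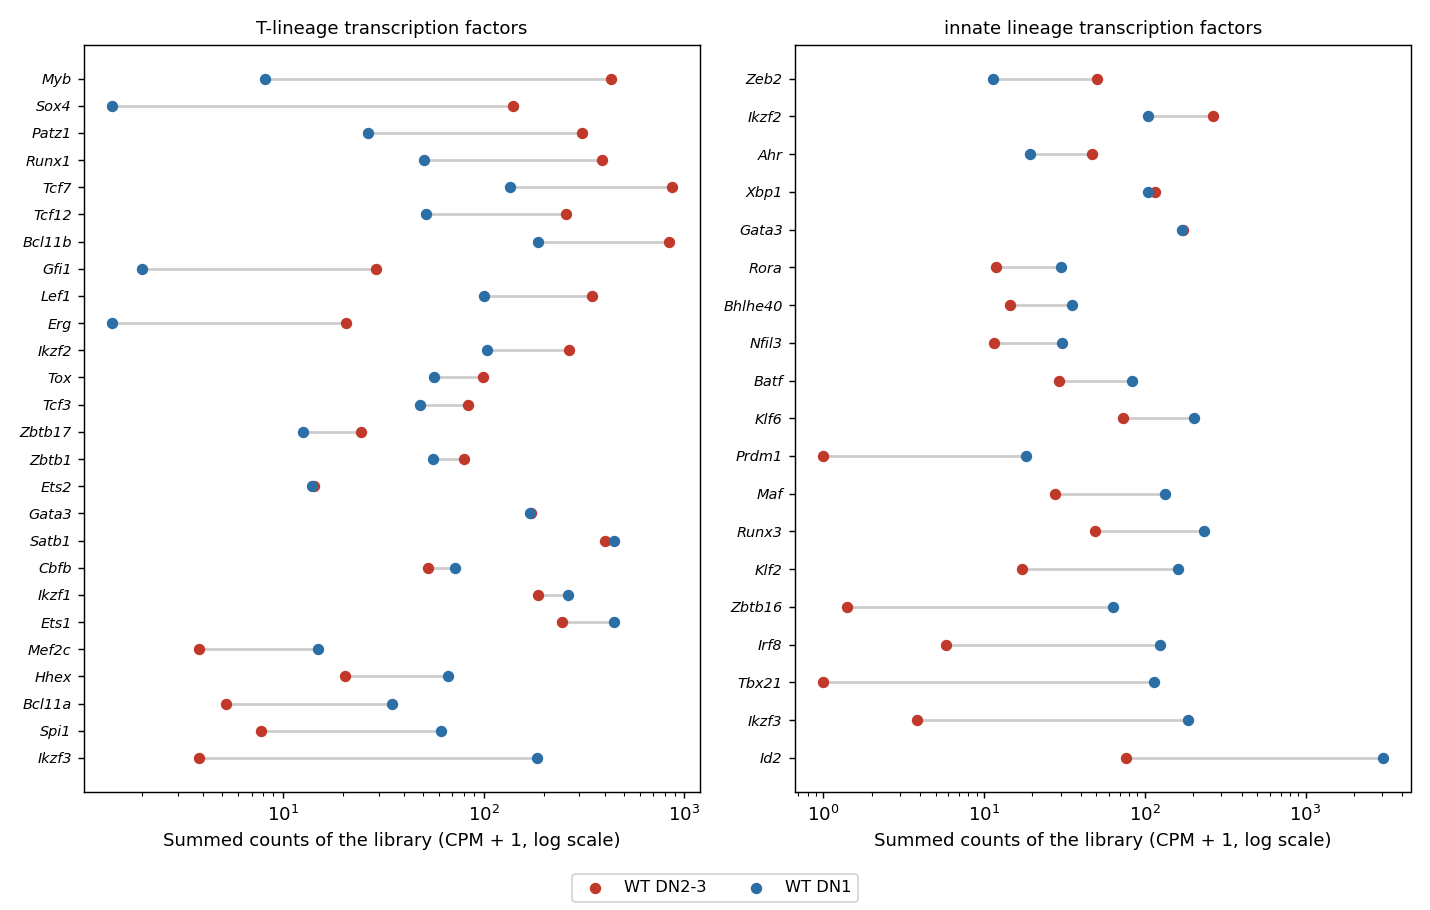
Summed level of the measured T-lineage transcription factors (left panel) and of all but 1 of the measured innate-lineage factors (right panel) in WT DN2-3 (red) and WT DN1 (blue), in CPM + 1 on a log scale, ordered by log2 ratio; 3 factors stand in both panels. Myb, Sox4 and Tcf7 lie to the right in WT DN2-3, Gata3 coincides, and Id2 at 74.96 CPM in WT DN2-3 and 3013 CPM in WT DN1 lies at the foot of the right panel with the lowest ratio.

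The NK-receptor families had few counts in WT DN2-3. All 9 measured genes of the Ly49 family, of receptors for MHC class I, were at least 2-fold lower, the pseudogene Klra13-ps among them, and together they had 6.83 CPM in WT DN2-3, against 2722 CPM in WT DN1. Klra1 had 2.61 CPM in WT DN2-3, against 370.2 CPM in WT DN1, and Klra5 had 0 counts in WT DN2-3, against 258 CPM in WT DN1. Ly49 genes are close copies of each other, so the split of reads among them is uncertain, while their sum is less so. Of 17 measured CD94, NKG2, NKR-P1 and related receptor genes, 15 were lower and 1 higher, with a median of -3.76, or -5.27 with genes at 0 counts set to their bound. Klre1 had 1.61 CPM in WT DN2-3, against 395 CPM in WT DN1, and its 8 positive WT DN2-3 cells had 1 count each. The gene that was higher was Slamf6, a receptor of the SLAM family on T cells, at 245 CPM in WT DN2-3 and 36.7 CPM in WT DN1. Cd96 lay within 2-fold, at 129.6 CPM in WT DN2-3 and 174 CPM in WT DN1. Ncr1, which encodes NKp46 and marks NK cells, had 0 counts in both gates, and Klrg1 had 0 counts in WT DN2-3 and 3 in WT DN1.

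Most of these genes lie in the NK gene complex at chr6:128609227-131353836 of GRCm38.p6. Of 36 annotated genes with counts there, 29 were measured, 21 were lower by 2-fold or more in WT DN2-3, 16 of them at least 4-fold, and 2 were higher. Their summed level was 554 CPM in WT DN2-3, against 6807 CPM in WT DN1, and their median log2 ratio was -2.56. The higher genes of the interval were Clec12a, a C-type lectin receptor gene, at 71.5 CPM in WT DN2-3 and 14.5 CPM in WT DN1, and the uncharacterised BC064078. The activation-marker gene Cd69, in the same interval, lay within 2-fold, at 106 CPM in WT DN2-3 and 148 CPM in WT DN1.

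Of 12 measured adaptor and signal molecules of NK cells, 10 were lower and 0 higher. Tyrobp, which encodes the adaptor DAP12, had 4.02 CPM in WT DN2-3, against 304 CPM in WT DN1. Il2rb, the chain shared by the interleukin-2 and interleukin-15 receptors, had 3.42 CPM in WT DN2-3, against 386 CPM in WT DN1, in 4 of 88 and 81 of 86 cells. Hcst, which encodes the NKG2D adaptor DAP10, was detected in WT DN2-3 too, at 106 CPM, against 686 CPM in WT DN1. Sh2d1a, which encodes the adaptor SAP, lay within 2-fold, at 238 CPM in WT DN2-3 and 124 CPM in WT DN1.

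Cytotoxic granule genes were mostly lower, 10 of 14 measured, with 1 higher and a median of -1.85. The higher gene was Gzma, a granzyme, at 1078 CPM (1049.7 to 1108) in WT DN2-3 and 486 CPM (470.1 to 503) in WT DN1. It was detected in 81 of 88 WT DN2-3 cells at a median of 734 CPM and in 59 of 86 WT DN1 cells at a median of 18.1 CPM, while the highest WT DN1 cell, at 14305 CPM, passed the highest WT DN2-3 cell, at 5158 CPM. After thinning, 82.5% of WT DN2-3 cells and 29.6% of WT DN1 cells had a Gzma count. The level and the share of cells thus went together for Gzma, and a few WT DN1 cells were very high. Gzmb, another granzyme, had 6.83 CPM in WT DN2-3, against 240.0 CPM in WT DN1. Prf1, which encodes perforin, had 0 counts in WT DN2-3, against 103 CPM in WT DN1. Nkg7, a granule membrane protein gene, had 458 CPM in WT DN2-3 in 71 of 88 cells, against 2495 CPM in WT DN1 in all 86, and the cathepsin gene Ctsw had 70.5 CPM in WT DN2-3, against 1428 CPM in WT DN1.

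Among chemokines and cytokines, 7 of 12 measured genes were lower and 0 higher. Xcl1, a chemokine of cytotoxic lymphocytes, had 0.804 CPM in WT DN2-3, against 382 CPM in WT DN1. Ltb, which encodes lymphotoxin beta, had 89.02 CPM in WT DN2-3, against 499.7 CPM in WT DN1. Ifng had 19.5 CPM in WT DN2-3, 93.8% of it from 1 cell, against 77.3 CPM in WT DN1. Of 12 measured chemokine and lysophospholipid receptors, 10 were lower and 1, Ccr9, was higher. Cxcr3, the receptor for interferon-induced chemokines, had 2.21 CPM in WT DN2-3, against 379 CPM in WT DN1. S1pr1, which guides exit from the thymus, had 2.41 CPM in WT DN2-3, against 45.1 CPM in WT DN1.

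Of 21 measured integrin and adhesion genes, 3 were higher and 8 lower, the higher share near the 16.3% of all measured genes. Itga4, an integrin chain gene, had 301 CPM in WT DN2-3, against 71.3 CPM in WT DN1. Itgae, the CD103 integrin chain, had 5.63 CPM in WT DN2-3, against 215 CPM in WT DN1, and its partner Itgb7 had 17.1 CPM in WT DN2-3, against 342 CPM in WT DN1. Itga1 had 0 counts in WT DN2-3, against 174 CPM in WT DN1. Of 33 measured cytokine receptor and Jak-Stat genes, 3 were higher, 9 lower and 21 within 2-fold. Il7r, the interleukin-7 receptor chain on which early T cells and innate lymphoid cells depend, was detected in 48 of 88 WT DN2-3 cells at 209 CPM and in 85 of 86 WT DN1 cells at 2026 CPM, 9.70-fold lower (95% interval 9.10 to 10.3). Il18r1, an interleukin-18 receptor chain, had 0 counts in WT DN2-3, against 161 CPM in WT DN1. Il2rg, the common gamma chain, was closer, at 215 CPM in WT DN2-3 and 348 CPM in WT DN1.

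Of 24 measured costimulatory and mature T-cell genes, 5 were higher and 12 lower. Cd5, whose level in thymocytes follows receptor signal strength, had 12.7 CPM in WT DN2-3, against 192 CPM in WT DN1, and Cd28 had 71.1 CPM in WT DN2-3, against 404 CPM in WT DN1. Cd40lg, the ligand by which T cells help B cells, had 0 counts in WT DN2-3, against 226 CPM in WT DN1. Thy1 and Cd27 lay within 2-fold, with Thy1 at 609 CPM in WT DN2-3 and 399 CPM in WT DN1. Cd4 had 0 counts in WT DN2-3 and 2 in WT DN1, and Cd8a had 18.3 CPM in WT DN2-3 and 6.05 CPM in WT DN1. Both gates excluded cells with these proteins.

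The Gimap genes, a cluster of GTPases of lymphocyte survival, lie at chr6:48647186-48770851 and differed among themselves. Gimap4 had 6.83 CPM (4.73 to 9.55) in WT DN2-3, against 893 CPM (872 to 916) in WT DN1, and Gimap3 had 2.61 CPM in WT DN2-3, against 459 CPM in WT DN1. Gimap9, between Gimap8 and Gimap4 in the cluster, had 277 CPM in WT DN2-3 and 255 CPM in WT DN1, and Gimap1 had 277 CPM in WT DN2-3 and 377 CPM in WT DN1. The sums over the 8 genes were 802 CPM in WT DN2-3 and 2716 CPM in WT DN1. The Ly6 family was also divided. Ly6d, Ly6k and Ly6c1 were higher and Ly6c2, Ly6a and Ly6g5b lower, with Ly6k at 216 CPM in WT DN2-3 and 4.22 CPM in WT DN1. Ly6c2 had 5.63 CPM in WT DN2-3, against 1545 CPM in WT DN1, and Ly6c1 had 106 CPM in WT DN2-3, against 5.06 CPM in WT DN1. Ly6c2 and Ly6c1 are near-identical copies, so the split of their reads is uncertain. Among S100 proteins, annexins and galectins, 10 of 14 measured genes were lower and 2 higher. Lgals3 had 0 counts in WT DN2-3, against 299 CPM in WT DN1, S100a4 had 0.201 CPM in WT DN2-3, against 222 CPM in WT DN1, and Lgals1 lay near even at 1236 CPM in WT DN2-3 and 995 CPM in WT DN1.

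Cell-division genes stood higher in WT DN2-3. Of 33 measured mitosis genes, 23 were at least 2-fold higher and 0 lower, with a median of 1.40, or 0.47 with a pseudocount of 50 CPM. Top2a, the topoisomerase of dividing cells, had 206 CPM in WT DN2-3 in 33 of 88 cells, against 12.7 CPM in WT DN1 in 1 of 86. Mki67 had 127 CPM in WT DN2-3 in 25 cells, against 18.6 CPM in WT DN1 in 6. Top2a or Mki67 was detected in 43 of 88 WT DN2-3 cells (48.9%, 95% Clopper-Pearson interval 38.1 to 59.8) and 6 of 86 WT DN1 cells (6.98%, 2.60 to 14.6). These intervals describe the sampling of cells within 1 library and are no test between the gates. Cdk1, the mitotic kinase, had 71.3 CPM in WT DN2-3, against 5.34 CPM in WT DN1. A few cells carried much of the sum, since the mitosis genes together took 650.0 CPM in the median and 19799.6 CPM in the highest WT DN2-3 cell, against 339 and 4259.7 CPM in WT DN1.

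Of 41 measured DNA replication genes, 15 were higher and 0 lower, with a median of 0.92. Uhrf1, which directs maintenance DNA methylation, had 213 CPM in WT DN2-3, against 8.86 CPM in WT DN1. The helicase gene Mcm6 had 319 CPM in WT DN2-3, against 98.3 CPM in WT DN1, while Mcm5 of the same complex had 103 CPM in WT DN2-3 and 72.1 CPM in WT DN1. In single cells the summed replication genes overlapped between the gates, with 610.4, 2222 and 13500.2 CPM in the lowest, median and highest WT DN2-3 cell, against 312, 1223 and 9111 CPM in WT DN1. Of 18 measured G1 regulators, 8 were higher and 0 lower. The inhibitor gene Cdkn1a, which encodes p21, had 87.2 CPM in WT DN2-3 and 0 counts in WT DN1. The D cyclins did not follow Cdk6, with Ccnd2 at 673 CPM in WT DN2-3 and 1257 CPM in WT DN1, and Ccnd3 at 130.2 CPM in WT DN2-3 and 117 CPM in WT DN1.

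Of 18 measured sterol synthesis genes, 11 were at least 2-fold higher and 0 lower, with a median of 1.07. That median was under 2-fold with TMM scaling (0.95), with DESeq2 scaling (0.95), with no filter on low values (0.90) and with a pseudocount of 50 CPM (0.35). Sqle, an enzyme of the pathway, had 31.8 CPM in WT DN2-3, against 2.67 CPM in WT DN1, and Hmgcs1 had 50.04 CPM in WT DN2-3, against 17.2 CPM in WT DN1. For nucleotide synthesis 10 of 25 measured genes were higher and 1 lower, and Paics, an enzyme of purine synthesis, had 279 CPM in WT DN2-3, against 86.2 CPM in WT DN1. Of 30 measured ribosome biogenesis genes, 6 were higher and 0 lower, a higher share near the 16.3% of all measured genes, with a median of 0.35. Ncl, which encodes nucleolin, had 1355 CPM in WT DN2-3, against 622 CPM in WT DN1.

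**Figure D4:**
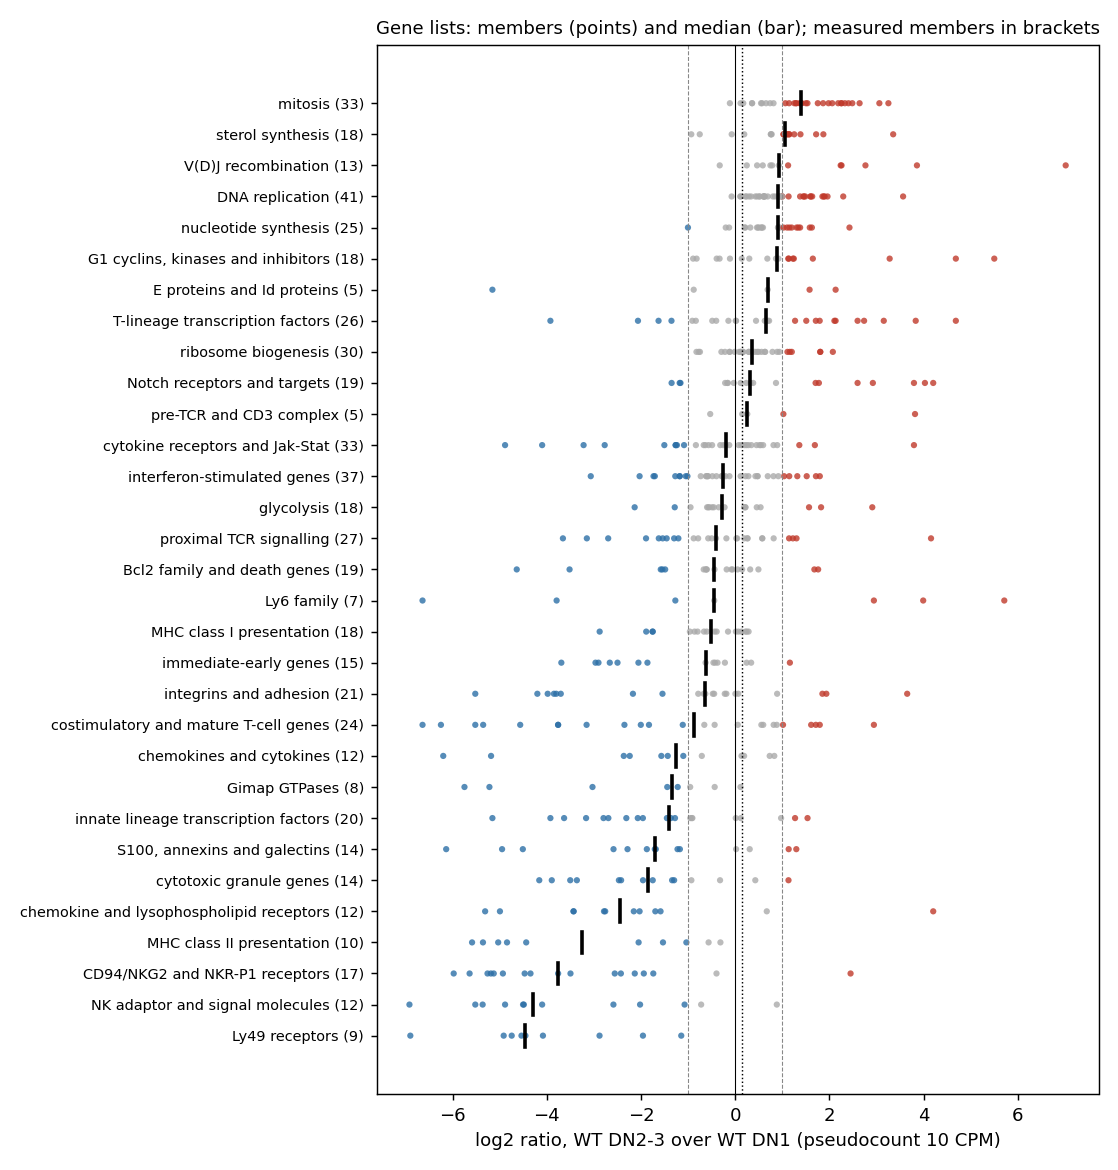
Log2 ratio of WT DN2-3 over WT DN1 for each measured member (points) of 31 pathway lists, with the list's median as a bar and the number of measured members in brackets; dashed lines mark 2-fold and the dotted line the median of all measured genes, 0.15. Mitosis and sterol synthesis have the highest medians and the Ly49 receptors, NK adaptors and CD94/NKG2 receptors the lowest.

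MHC class I genes were lower in part, 4 of 18 measured and 0 higher. H2-K1 had 778 CPM in WT DN2-3, against 2638 CPM in WT DN1, and B2m had 5415 CPM in WT DN2-3, against 8568 CPM in WT DN1. H2-K1 and H2-D1 are close copies and share reads to an unknown extent. MHC class II genes, which present antigen on dendritic cells and B cells, were lower in 8 of 10 measured genes with 0 higher, and their WT DN1 counts were concentrated in few cells. H2-Ab1 had 3.22 CPM in WT DN2-3, against 530.3 CPM in WT DN1, and 57.2% of the WT DN1 counts came from 1 cell, and Cd74 had 53.1% in 1 cell. H2-Ab1 was detected in 66 of 86 WT DN1 cells, at a median of 2 counts in those cells. Leaving each gene's highest cell out, the list's median log2 ratio over the genes then measured was -4.15, against -3.24 with all cells, and after thinning it was -2.04. The summed class II genes took 269 CPM in the median and 60656 CPM in the highest WT DN1 cell, against 42.2 and 888 CPM in WT DN2-3.

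Marker lists of cell types that the gates could hold were read in the same way. Of 11 measured DN2 markers, 3 were higher by 2-fold or more in WT DN2-3 and 5 lower. They summed to 2056 CPM in WT DN2-3, against 2745 CPM in WT DN1, and to 1831 and 2674 CPM in the median cells. Of 13 measured mature T-cell and NKT markers, 3 were higher and 5 lower, with sums of 4694 CPM in WT DN2-3 and 5242 CPM in WT DN1. DN3 markers summed to 2442, 6778 and 19078 CPM in the lowest, median and highest WT DN2-3 cell, against 32.5, 615 and 4914 CPM in WT DN1, and 1 WT DN1 cell lay within the WT DN2-3 range. Markers of later, CD4 and CD8 double-positive thymocytes were also higher, 9 of 11 measured with 1 lower, and their sums did not overlap, at 1299 CPM in the lowest WT DN2-3 cell and 802 CPM in the highest WT DN1 cell. That list holds Dntt, Arpp21, Aqp11 and Ccr9, which were chosen by this comparison, and Cd4 was not measured. NK cell markers summed to 0, 1272 and 6092 CPM in WT DN2-3, against 78.2, 7073 and 31138 CPM in WT DN1, and most of the WT DN2-3 sum was Gzma and Nkg7. Of 13 measured NK cell markers, 12 were lower by 2-fold or more in WT DN2-3 and 1 was higher. The NK genes Ncr1 and Eomes had 0 and 4 counts in WT DN1. A count for a CD3 gene was found in all 86 WT DN1 cells. Of 7 measured early thymic progenitor markers, 5 were lower in WT DN2-3 and 0 higher, with a median of -1.63. That median was -0.73 with a pseudocount of 50 CPM and -0.83 with no filter on low values. The list summed to 262 CPM in WT DN2-3 and 2447 CPM in WT DN1. Most of the WT DN1 sum was Il7r, at 209 CPM in WT DN2-3 and 2026 CPM in WT DN1, and the gate gene Cd44, both of which other lymphocytes also express. Kit, Flt3, Cd34, Mpo and Hoxa9 had low levels or no counts in WT DN1, and members not given here held the rest of the WT DN1 sum. Kit had 14.5 CPM in WT DN2-3 and 10.1 CPM in WT DN1, where 5 of 86 cells had a count, Flt3 had 0 counts in WT DN2-3 and 6.75 CPM in WT DN1, Cd34 had 1 count in WT DN2-3 and 0 in WT DN1, and Mpo and Hoxa9 had 0 counts in both. Whether the WT DN1 cells include progenitors was not tested, and they are called by their gate. Of 8 measured innate lymphoid markers, 5 were lower in WT DN2-3, 0 higher and 3 within 2-fold. Their median was -1.99, or -0.76 with a pseudocount of 50 CPM and -0.79 with no filter on low values. Lower members such as Il1r1, at 0 counts in WT DN2-3 and 21.7 CPM in WT DN1, and Ccr6, at 0 counts in WT DN2-3 and 57.6 CPM in WT DN1, were found in part of the WT DN1 cells.

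A few cells carried genes of other types. In WT DN1 the B cell gene Cd79a had 70.8% of its 397 counts in 1 cell and the dendritic cell gene Xcr1 93.3% of its 445 counts in 1 cell. Dendritic cell markers summed to 259 CPM in the median and 42556 CPM in the highest WT DN1 cell, against 812 and 2993 CPM in WT DN2-3, where Ccr9 and Bst2, which thymocytes also express, made up most of it. Their part in the differences of MHC class II genes was not tested. The 15 named higher genes summed to at most 3027 CPM in a WT DN1 cell, against a lowest WT DN2-3 cell of 5998 CPM. The 15 named lower genes summed to at most 1767 CPM in a WT DN2-3 cell, against a lowest WT DN1 cell of 2023 CPM. No cell lay on the other gate's side, but the genes were chosen by this contrast, so the gap is a description.

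**Figure D5:**
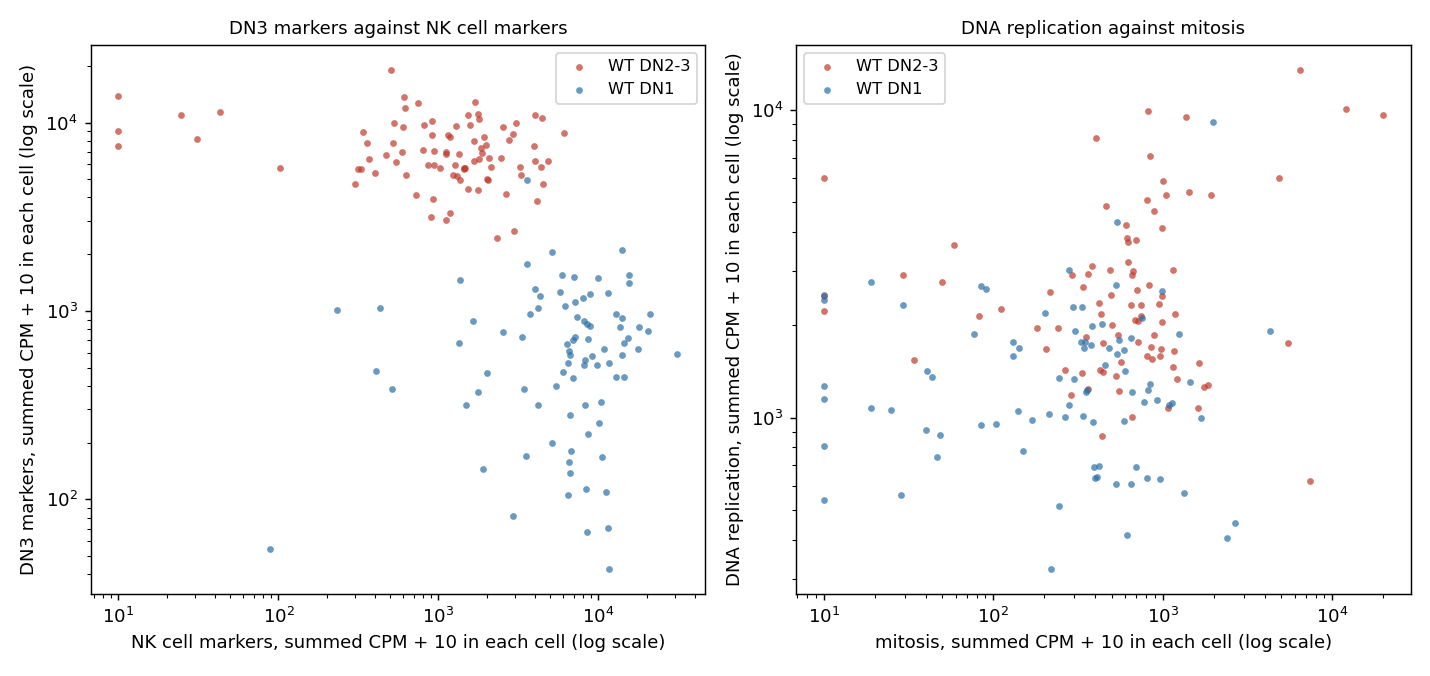
Each point is 1 kept cell of WT DN2-3 (red) or WT DN1 (blue), with the summed CPM + 10 of DN3 markers against NK cell markers (left) and of DNA replication against mitosis genes (right), on log scales. The gates separate along DN3 markers except for the highest WT DN1 cell at 4914 CPM, and overlap along both cell-division axes, where the highest mitosis sum is 19799.6 CPM in WT DN2-3 and 4259.7 CPM in WT DN1.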

How the data were processed

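Gene-level read counts of single thymocytes were used as the authors deposited them, with 1 column for each cell. Per the submitters' processing notes, TopHat2 2.1.1 and HTSeq were the tools and mm10 (GRCm38) the genome. Per the labels, cDNA was amplified by a modified STRT protocol and the libraries were sequenced as paired ends. The labels also name Smart-seq2. The annotation, strand use and treatment of molecular identifiers are not given in the sources used here. The authors also deposited log2 values, which served as an alternative. Turned back to the linear scale, they were proportional to the counts within each WT DN2-3 cell, to within 0.0193%, for counts over 5. Lower counts and WT DN1 cells were not checked.

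The table had 23154 rows. Of these, 27 had names turned into dates (0.141% of counts) and were left out, which left 23127 genes, none of them mitochondrial or a spike-in. A cell needed 1000 detected genes to stay in. No doublet caller was run, since cells had been sorted singly. Summed counts of each library were scaled to a total of 1000000 (CPM). The groups were taken from the labels, and each gate was 1 library, so the comparison had no replicates and no test. Precision was limited to exact Poisson intervals for levels, Clopper-Pearson intervals for shares and conditional binomial intervals for folds. A level of 0 was bounded by 3 counts per library. Depth per library and cell is given with the results.

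The named genes were the top 15 and bottom 15 by log2 ratio among genes that, in the library where they were higher, reached 50 CPM and a count in 50% of cells, with at most 25% of counts from 1 cell. Gene models without a name were passed over, as were Xist and Y-linked genes. Members of a described list and Tcf7 are also named. A few list members are counted but not reported here by name. The comparison, its marker genes and the gene lists were chosen with earlier results of these data known. Gene positions and promoters came from RefSeq on GRCm38.p6, where 98.0% of measured genes were matched by symbol. The ratios and their intervals were tested on simulated counts with known changes, in which all cells of a library shared the same profile. Alternatives were TMM and DESeq2 scaling, cells weighted equally, other pseudocounts, other filters on cells and genes, thinning, low counts set to 0, the highest cell of each gene left out, and the deposited log2 values. Python 3.11.15, numpy 2.4.6, pandas 2.3.3, scipy 1.17.1, matplotlib 3.10.9, R 4.3.3, edgeR 4.0.16 and DESeq2 1.42.0 were used, the last 2 for scaling factors.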

Additional observations from a re-analysis of the deposited data

How the results depend on the processing

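The number of genes past 2-fold, 1416 higher and 1017 lower in WT DN2-3, depended on how low levels were treated. With a pseudocount of 50 CPM it was 345 higher and 314 lower, since a larger pseudocount shrinks the ratios of low genes, and among genes at 50 CPM or more it was 727 higher and 517 lower, with fewer genes counted. Under every other alternative run both counts lay within 1.5 times. TMM factors gave 1118 higher and 1259 lower, and DESeq2 size factors 1124 and 1253, so which side was larger turned with the scaling. The named and marker genes kept their direction and 2-fold difference in 455 of 455 values, 35 genes under 13 alternatives. The lists with a median of at least 2-fold kept it in 248 of 273 values, and the other 25 values fell on 11 lists. With a pseudocount of 50 CPM 2-fold was lost by innate-lineage factors, chemokines, chemokine receptors, mitosis, sterol synthesis and innate lymphoid, gamma-delta T, progenitor and B cell markers. With no filter on low values it was lost by chemokines, sterol synthesis and innate lymphoid, gamma-delta T, progenitor, dendritic cell and stroma markers. Sterol synthesis also lost it under both scalings, and chemokines and gamma-delta T markers with cells weighted equally, in thinned cells and with the deposited log2 values. Gamma-delta T markers lost it without the highest cells too. The sign of the median had no hold for 3 lists. For DN2 markers it was 0.01, against -0.27 with TMM and -1.11 with cells weighted equally. For mature T-cell and NKT markers it was 0.15, against -0.04 with TMM and -0.53 among genes at 50 CPM or more. For erythroid and mast cell markers it was 0.25, against -0.02 in thinned cells. The cause of these shifts was not tested.

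The comparison has 1 library per gate, so library, animal and gate cannot be told apart, and no interval here covers them. A count of 0 allows up to 0.603 CPM in WT DN2-3 and 0.422 CPM in WT DN1. No paired analysis was possible because replicate numbers are well barcodes of separate cells and no test was made.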

Other observations

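Survival genes differed within the Bcl2 family. Of 19 measured survival and death genes, 2 were higher by 2-fold or more in WT DN2-3 and 5 lower, beside 16.3% and 11.7% of all measured genes. The A1 genes, which encode survival proteins of lymphocytes, were among the lower ones. Bcl2a1d had 0 counts in WT DN2-3, against 239 CPM in WT DN1, and Bcl2a1b had 0 counts in WT DN2-3, against 104 CPM in WT DN1, and their reads cannot be split with certainty because they are near-identical copies. Bcl2 itself had 237 CPM in WT DN2-3 and 251 CPM in WT DN1. The proapoptotic gene Bmf had 22.1 CPM in WT DN2-3 and 0 counts in WT DN1, while Bbc3, which encodes PUMA, had 3.01 CPM in WT DN2-3 and 26.4 CPM in WT DN1. The death receptor gene Fas had 6.43 CPM in WT DN2-3, against 39.1 CPM in WT DN1.

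Immediate-early genes were lower in 7 of 15 measured and higher in 1, beside 11.7% and 16.3% of all measured genes. Junb had 35.4 CPM in WT DN2-3, against 277 CPM in WT DN1, whereas Jun had 161 CPM in WT DN2-3, against 66.4 CPM in WT DN1, and Fos had 141 CPM in WT DN2-3 and 165 CPM in WT DN1. The feedback phosphatase genes Dusp1 and Dusp2 were lower, with Dusp2 at 70.7 CPM in WT DN2-3 and 593 CPM in WT DN1. Zfp36, which encodes the mRNA-destabilising protein tristetraprolin, had 1 count in WT DN2-3, against 122 CPM in WT DN1. Of 9 measured genes of dissociation stress, 2 were higher and 0 lower, the higher share near the 16.3% of all measured genes. The chaperone gene Hsp90aa1, a higher member, had 2195 CPM in WT DN2-3 and 844 CPM in WT DN1.

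Of 37 measured interferon-stimulated genes, 6 were higher and 9 lower, the higher share near the 16.3% of all measured genes. Ifi27 had 534 CPM in WT DN2-3, against 235 CPM in WT DN1, and Samhd1, a nucleotide hydrolase that restricts viruses, had 5.63 CPM in WT DN2-3, against 121 CPM in WT DN1. Of 18 measured glycolysis genes, 3 were higher and 2 lower, both shares near those of all measured genes, 16.3% and 11.7%. The lactate dehydrogenase subunit gene Ldhb had 217 CPM in WT DN2-3, against 20.1 CPM in WT DN1, while Ldha had 824 CPM in WT DN2-3 and 706 CPM in WT DN1. The phosphofructokinase genes were opposed, with Pfkm at 20.1 CPM in WT DN2-3 and 0.141 CPM in WT DN1, and Pfkp at 14.3 CPM in WT DN2-3 and 96.4 CPM in WT DN1.

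Some genes best known from other tissues had counts in WT DN2-3. Pdgfrb, a receptor gene of mesenchymal cells, had 76.6 CPM in 22 of 88 WT DN2-3 cells and 0 counts in WT DN1, whereas the mesenchymal genes Col3a1 and Pdgfra had 0 counts in both. Lyz2, which encodes lysozyme, had 74.8 CPM in 31 WT DN2-3 cells, against 6.47 CPM in 2 WT DN1 cells, whereas the myeloid genes Cd14, Mpo and Adgre1 had 0 counts in both. Epcam, an epithelial adhesion gene, had 86.2 CPM in 36 WT DN2-3 cells, against 6.61 CPM in 3 WT DN1 cells, whereas the thymic epithelial genes Foxn1, Krt5 and Krt8 had 0 counts in both. Xist, the RNA of the inactive X chromosome, had 485 CPM in 80 of 88 WT DN2-3 cells, against 128 CPM in 53 of 86 WT DN1 cells, and the Y-linked gene Uty had 4.22 CPM in WT DN2-3 and 2.81 CPM in WT DN1. The part of the animals' sex in any difference between the gates was not tested.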
